A study of Mus musculus with 20 samples.

Results

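The 10 genes described are cytosolic HSP90 and its partners in the mouse heart: the HSP90 genes *Hsp90aa1* and *Hsp90ab1*, the co-chaperones *Ahsa1*, *Ahsa2*, *Stip1*, *Fkbp4*, *Chordc1*, *Cdc37* and *Ptges3*, and the transcription factor gene *Hsf1*. They were taken by symbol from the 31874 genes of the expression table. All 10 were found and all 10 passed the expression filter, which 18219 genes passed. RNA was sequenced from the ventricles of 20 hearts perfused on a Langendorff apparatus, which feeds an isolated heart through the aorta. There were 4 groups with 5 hearts each, described as independent samples. Fat1-IR hearts came from *fat-1* mice and were equilibrated for 40 min, made globally ischemic for 20 min and reperfused for 1 h (IR). Fat1-Con hearts came from *fat-1* mice and were perfused without interruption for 120 min. WT-IR hearts came from wild-type C57BL/6J mice and had the same IR, and WT-Con hearts came from wild-type C57BL/6J mice and were perfused for the same 120 min. All mice were 3 months old. The *fat-1* transgene is a desaturase of *Caenorhabditis elegans* that turns n-6 into n-3 polyunsaturated fatty acids. The sources used here do not give its promoter. The controls were thus excised and perfused as well, so no group stands for an undisturbed heart.

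HSP90 is an ATP-driven chaperone that acts late in folding. It takes partly folded clients, many of them kinases and steroid hormone receptors, and brings them to an active or ligand-ready form. Its co-chaperones act at set points of this cycle: STIP1 (HOP) passes clients on from HSP70, CDC37 brings kinases, AHSA1 speeds the ATPase, PTGES3 (p23) holds the closed state, and FKBP4 (FKBP52) joins mature receptor complexes. HSF1 is the main factor that switches on heat shock genes under stress, and HSP90 binds it and holds it back in unstressed cells. In cardiomyocytes these chaperones work beside a large load of contractile proteins.

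Libraries held 15626847 to 25993335 fragments assigned to genes (median 19526067). Members were covered by 277 fragments (*Ahsa2*, lowest heart) to 58169 fragments (*Hsp90ab1*, highest heart). Values are FPKM, a level scaled both to exon length and to the fragments assigned in each library. The mitochondrial genome gave 13.9% of fragments in Fat1-IR 1 and 15.1% in WT-Con 5, against 28.4% to 39.3% in the other 18 hearts. Because FPKM is a share of all assigned fragments, this difference enters the values of every nuclear gene, and it is given beside the members it moved with. The 10 cardiomyocyte markers summed to 26613 FPKM in Fat1-IR 1 and 38263 FPKM in WT-Con 5, against 16910.1 to 21824.5 FPKM elsewhere, and none of them was at 0. The 8 lymphocyte markers summed to 148 FPKM in Fat1-IR 4, against at most 3.33 FPKM elsewhere. The 7 adipocyte markers summed to 87.0 to 274.0 FPKM in Fat1-IR hearts, against 57.8 to 76.2 FPKM in Fat1-Con hearts, and to 98.9 to 134.7 FPKM (median 112.8) in WT-IR hearts, against 61.1 to 175.5 FPKM (median 69.3) in WT-Con hearts. The 7 fibroblast markers summed to 176 to 215 FPKM in WT-IR hearts, against 132 to 162 FPKM in WT-Con hearts, and the 8 smooth muscle and pericyte markers to 222 to 251 FPKM in WT-IR hearts, against 178 to 202 FPKM in WT-Con hearts. The part of these cell types in the results below was not tested. In whole ventricle, fewer cells of a type and less RNA per cell cannot be told apart. The sample descriptions name no sequencing batch.

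Differences were tested with limma on log2(FPKM + 0.1) in 1 fit of the 4 groups, with p-values adjusted over the 18219 genes by the Benjamini-Hochberg method. A gene is said to have risen or fallen where the adjusted p was under 0.05 and the change exceeded 1.5 times. Fold changes are on this log2 scale, and errors are standard errors (SE). Where mitochondrial transcripts are left out of the total, FPKM were rescaled to the summed FPKM of all other genes in a library. That total is a sum of FPKM and not of fragments.

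After IR, 5 of the 10 genes rose in *fat-1* hearts (Fat1-IR against Fat1-Con), where 1.3% of all tested genes rose. These were both HSP90 genes and the co-chaperones *Ahsa2*, *Stip1* and *Chordc1*. *Hsp90aa1* had the largest change, and its partners changed by less than 1 on the log2 scale. No member fell, where 0.703% of all tested genes fell. For 7 of the 10, every Fat1-IR heart was above every Fat1-Con heart, which held for 4.22% of all tested genes. The median log2 fold change of the 10 was 0.68, and that of all tested genes was 0.084. In wild-type hearts (WT-IR against WT-Con), *Hsp90aa1* alone rose, 1 of 10, where 2.01% of all tested genes rose. No member fell there, where 1.19% of all tested genes fell. The median of the 10 was 0.14, and that of all tested genes was 0.037. Without Fat1-IR 1, Fat1-IR 4 and WT-Con 5, the libraries that stand apart, 3 of 10 rose in *fat-1* hearts, where 1.19% of all tested genes rose in that fit, and 1 of 10 in wild-type hearts, where 3.16% did.

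**Figure D1:**
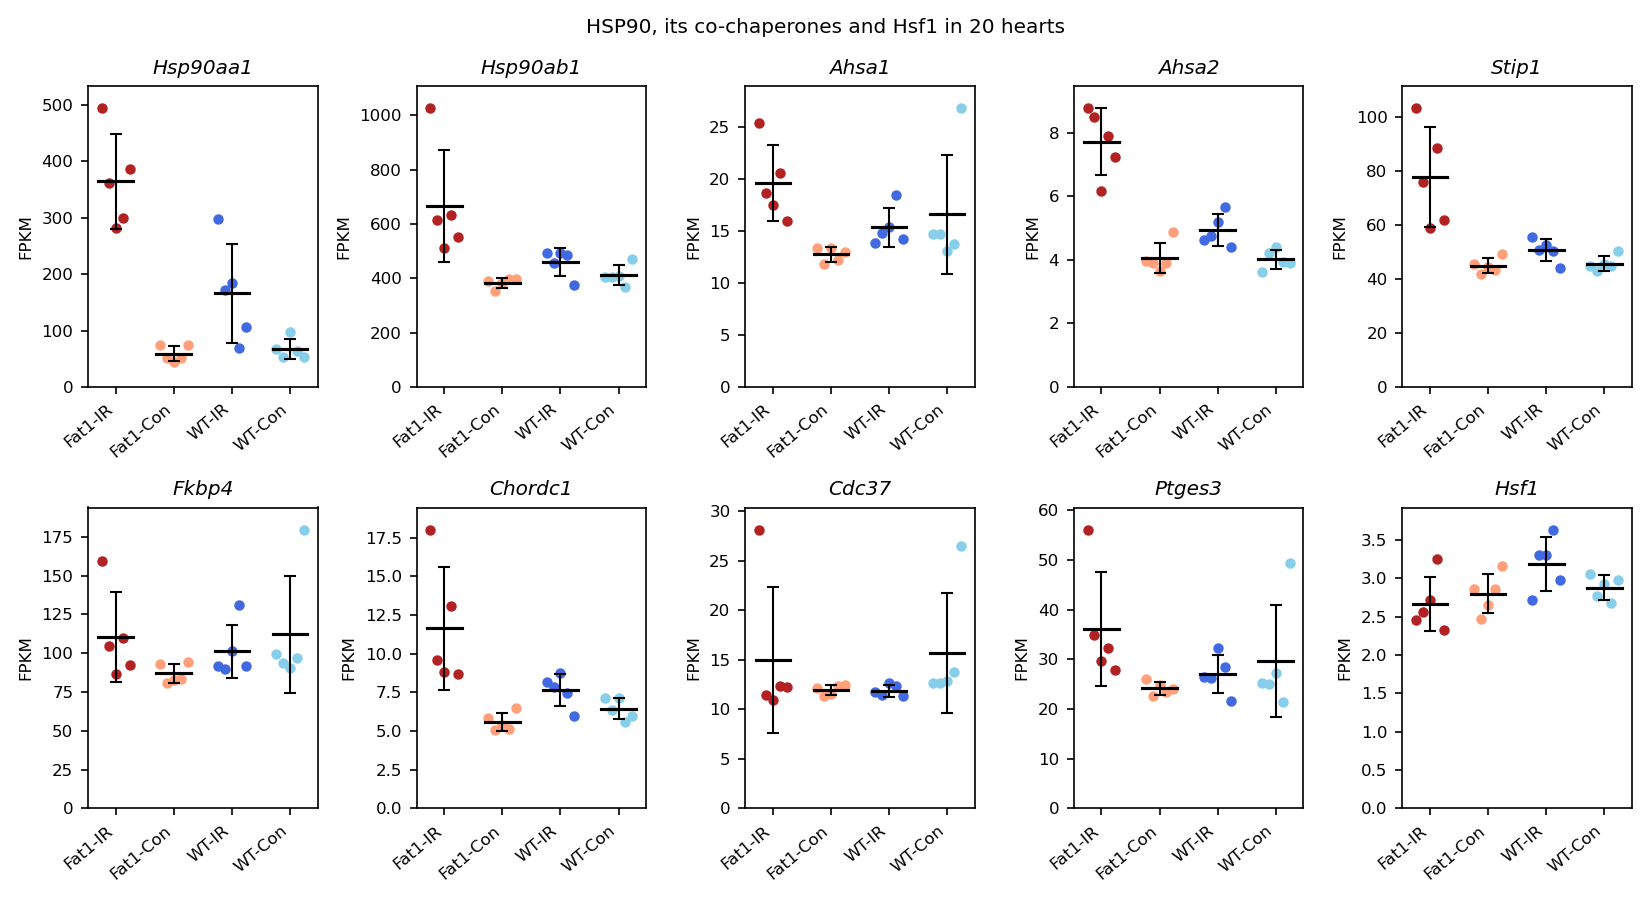
FPKM (vertical axes, each starting at 0) of the 10 genes in the 20 hearts, 1 panel a gene. Points are hearts, from heart 1 on the left to heart 5 on the right of each group, and bars are the mean and SD of 5 hearts. For *Hsp90aa1*, *Hsp90ab1*, *Ahsa2*, *Stip1* and *Chordc1* all 5 Fat1-IR points lie above all 5 Fat1-Con points, while for *Cdc37* the high points are Fat1-IR 1 and WT-Con 5, and for *Fkbp4* these and WT-IR 4.

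*Hsp90aa1* (chromosome 12, bases 110690605 to 110702728, minus strand, mm10) encodes the stress-inducible form, HSP90 alpha. It measured 494, 362, 282, 300.3 and 386 FPKM in Fat1-IR hearts 1 to 5, against 73.7, 51.2, 45.1, 51.0 and 73.6 FPKM in Fat1-Con hearts 1 to 5. The lowest Fat1-IR heart stood well above the highest Fat1-Con heart. The log2 fold change was 2.63 (SE 0.29, limma adjusted p = 3.34e-05), a 6.19-fold higher level. Among wild-type hearts it measured 298, 172, 185, 68.4 and 107 FPKM in WT-IR hearts 1 to 5, against 67.0, 53.5, 97.5, 63.3 and 53.1 FPKM in WT-Con hearts 1 to 5. WT-IR hearts were spread widely, with WT-IR 1 inside the Fat1-IR range and WT-IR 4 inside the WT-Con range, so these groups overlapped. The rise there was 1.17 on the log2 scale (SE 0.29, limma adjusted p = 0.0267). This call was lost on leaving out any of WT-IR 1, WT-IR 2, WT-IR 3, WT-Con 1, WT-Con 2 or WT-Con 4, when the log2 fold change was 0.92, 1.12, 1.09, 1.18, 1.10 and 1.16 in that order, at limma adjusted p-values between 0.0539 and 0.0692. In order of level, Fat1-IR hearts came first, WT-IR hearts next, and the control groups last. Fat1-IR and WT-IR overlapped through WT-IR 1, and the control groups overlapped throughout. *Hsp90aa1* shares 41.8% of its exon stretches of 50 bases with the processed pseudogene *Gm12346*, so reads may have been split between them. *Gm12346* had means of 8.60 FPKM in Fat1-IR, 1.65 FPKM in Fat1-Con, 3.89 FPKM in WT-IR and 1.69 FPKM in WT-Con.

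*Hsp90ab1* (chromosome 17, bases 45567775 to 45573271, minus strand) encodes the constitutive form, HSP90 beta, and was the most abundant of the 10 genes, at a mean of 480 FPKM over the 20 hearts. It measured 1026, 614, 512, 634 and 552 FPKM in Fat1-IR hearts 1 to 5, against 389.9, 352, 381, 398 and 396 FPKM in Fat1-Con hearts 1 to 5. Fat1-IR 1 was far above the rest of its group, and the remaining Fat1-IR hearts were still all above Fat1-Con. The rise was 0.76 on the log2 scale (SE 0.15, limma adjusted p = 0.00803). Without Fat1-IR 1, Fat1-IR 4 and WT-Con 5 it was 0.54, under the fold threshold, at a limma adjusted p of 0.00281. In wild-type hearts its level was 492, 455, 493, 487 and 374 FPKM in WT-IR hearts 1 to 5, against 405, 403, 407, 369 and 470.2 FPKM in WT-Con hearts 1 to 5. These groups overlapped, with WT-IR 5 near the bottom and WT-Con 5 among the WT-IR values, and the log2 fold change was 0.16 (SE 0.15, limma adjusted p = 0.701). *Hsp90aa1* and *Hsp90ab1* share no exon stretch of 50 bases.

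The balance of the HSP90 transcripts was also followed heart by heart. *Hsp90aa1* made up 32.5%, 37.1%, 35.5%, 32.1% and 41.2% of the summed FPKM of both genes in Fat1-IR hearts 1 to 5, against 15.9%, 12.7%, 10.6%, 11.4% and 15.7% in Fat1-Con hearts 1 to 5. In wild-type mice it was 37.7%, 27.5%, 27.3%, 12.3% and 22.2% in WT-IR hearts 1 to 5, against 14.2%, 11.7%, 19.3%, 14.7% and 10.1% in WT-Con hearts 1 to 5. All Fat1-IR hearts and 4 of 5 WT-IR hearts were above every control heart, and WT-IR 4 was not. This share is a ratio within a library, so the scaling to the library total cancels out of it. Other differences of the libraries with low mitochondrial shares can still enter. WT-Con 5 and WT-IR 4, with the lowest mitochondrial shares of their groups, had the lowest *Hsp90aa1* share there. Fat1-IR 1, at 32.5%, was next to the lowest of its group, Fat1-IR 4 at 32.1%. The part of the mitochondrial share in this ratio was not tested. It is given as a description, since both genes had already been compared.

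**Figure D2:**
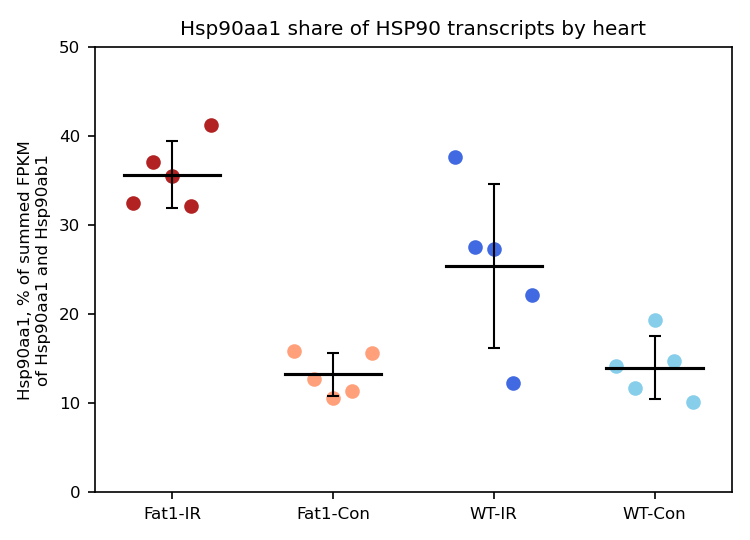
*Hsp90aa1* as a percent of the summed FPKM of *Hsp90aa1* and *Hsp90ab1* (vertical axis) in the 4 groups, with 1 point a heart and the mean and SD of 5 hearts. Means were 35.7% in Fat1-IR, 13.3% in Fat1-Con, 25.4% in WT-IR and 14.0% in WT-Con, and 1 WT-IR point lies among the controls.

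The AHA1 family stimulates the ATPase of HSP90. *Ahsa2* (chromosome 11, bases 23487882 to 23498030, minus strand), a homolog of *Ahsa1*, measured 8.77, 8.50, 6.16, 7.90 and 7.24 FPKM in Fat1-IR hearts 1 to 5, against 3.97, 3.89, 3.64, 3.89 and 4.87 FPKM in Fat1-Con hearts 1 to 5. All Fat1-IR hearts lay above all Fat1-Con hearts, and the rise was 0.91 on the log2 scale (SE 0.11, limma adjusted p = 8.17e-05). Without the transgene it measured 4.62, 4.74, 5.20, 5.67 and 4.41 FPKM in WT-IR hearts 1 to 5, against 3.63, 4.22, 4.40, 3.94 and 3.91 FPKM in WT-Con hearts 1 to 5. It was the only member whose WT-IR and WT-Con hearts did not overlap, though WT-IR 5 and WT-Con 3 nearly met, and 3.36% of all tested genes were higher in this way. The log2 fold change was 0.28 (SE 0.11, limma adjusted p = 0.207), which did not pass the test. Of the 4532 exon bases of *Ahsa2*, 2137 (47.2%) overlap exons of *Usp34*, a deubiquitinase gene on the opposite strand, and the sources used here do not say whether strand was used in counting. *Usp34* had means of 2.75 FPKM in Fat1-IR, 3.14 FPKM in Fat1-Con, 3.08 FPKM in WT-IR and 3.02 FPKM in WT-Con. Its part in the values of *Ahsa2* was not tested.

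*Ahsa1* (chromosome 12, bases 87266479 to 87273998, plus strand), the main ATPase activator, measured 25.4, 18.7, 17.5, 20.6 and 15.99 FPKM in Fat1-IR hearts 1 to 5, against 13.4, 11.8, 13.4, 12.2 and 13.0 FPKM in Fat1-Con hearts 1 to 5. The groups did not overlap, but the log2 fold change of 0.60 (SE 0.16) had a limma adjusted p of 0.0589. Without WT-Con 5 the value stayed 0.60 and passed, at a limma adjusted p of 0.00215, since the fit shares 1 estimate of spread over all groups. It also passed with a filter at a mean of 1 FPKM, with each pair of groups fitted alone and with voom. The limma adjusted p-values were then 0.0458, 0.0191 and 0.0483. With the fit without WT-Con 5, these were the only passes, 4 of 33 alternatives. The limma adjusted p reached 0.154 among the alternatives. The change was 0.46 with mitochondrial transcripts left out of the total and 0.44 without Fat1-IR 1, Fat1-IR 4 and WT-Con 5, both under the fold threshold. In wild-type mice *Ahsa1* measured 13.8, 14.8, 15.4, 18.5 and 14.2 FPKM in WT-IR hearts 1 to 5, against 14.7, 14.7, 13.1, 13.7 and 26.8 FPKM in WT-Con hearts 1 to 5. The groups overlapped and WT-Con 5 was the highest of all 20 hearts, and the log2 fold change was -0.07 (SE 0.16, limma adjusted p = 0.908). That sign turned with the scaling, to 0.06 when mitochondrial transcripts were left out of the total.

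*Stip1* (chromosome 19, bases 7020702 to 7039967, minus strand), the adaptor that links HSP70 to HSP90, measured 103, 76.0, 58.7, 88.5 and 61.9 FPKM in Fat1-IR hearts 1 to 5, against 45.6, 41.9, 44.4, 43.4 and 49.1 FPKM in Fat1-Con hearts 1 to 5. All Fat1-IR hearts were above all Fat1-Con hearts, and the rise was 0.76 on the log2 scale (SE 0.13, limma adjusted p = 0.00165). Without Fat1-IR 1, Fat1-IR 4 and WT-Con 5 it was 0.54, under the fold threshold, at a limma adjusted p of 0.0019. The wild-type values were 55.4, 50.6, 52.7, 50.2 and 44.2 FPKM in WT-IR hearts 1 to 5, against 44.7, 42.9, 45.7, 44.7 and 50.3 FPKM in WT-Con hearts 1 to 5. These overlapped, and the log2 fold change was 0.15 (SE 0.13, limma adjusted p = 0.663).

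*Chordc1* (chromosome 9, bases 18292125 to 18317442, plus strand) encodes a CHORD-domain protein that binds HSP90. It measured 18.0, 9.61, 8.83, 13.1 and 8.69 FPKM in Fat1-IR hearts 1 to 5, against 5.83, 5.05, 5.38, 5.14 and 6.50 FPKM in Fat1-Con hearts 1 to 5. The groups did not overlap, with Fat1-IR 1 and Fat1-IR 4 highest, and the rise was 0.99 on the log2 scale (SE 0.17, limma adjusted p = 0.00173). It was 0.69 without Fat1-IR 1, Fat1-IR 4 and WT-Con 5, at a limma adjusted p of 0.00354. In mice without *fat-1* it measured 8.17, 7.85, 8.72, 7.45 and 5.97 FPKM in WT-IR hearts 1 to 5, against 7.11, 6.36, 7.11, 5.60 and 5.95 FPKM in WT-Con hearts 1 to 5. Most WT-IR hearts were above WT-Con, but WT-IR 5 was among them, and the log2 fold change was 0.24 (SE 0.17, limma adjusted p = 0.563).

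HSF1 binds DNA at heat shock elements, inverted repeats of the unit GAA. Promoters of RefSeq (build GRCm38.p6, from 250 bases before to 50 bases after the start of a gene) were found for 7 members, *Ahsa1*, *Ahsa2*, *Stip1*, *Fkbp4*, *Chordc1*, *Cdc37* and *Ptges3*, and were searched on both strands for the cores GAANNTTC and TTCNNGAA, each of which reads the same on either strand. A core was present in 3 of these 7 and in 15.1% of 32851 mouse promoters. *Chordc1* held 5 cores, starting at positions -4, 2, 7, 12 and 34 from the start site, of which 4 overlap in an unbroken run. At least 3 cores were present in 0.256% of the promoters searched. *Fkbp4* and *Cdc37* held 1 core each, at -151 and -170, and *Stip1*, which rose with *Chordc1*, held none in the window searched. A stretch of 130 bases is shown for each of these 4 to set the promoter with the run of cores beside those of a member that rose without one and of the members with a single core. Cores are in capitals, and the fifth core of *Chordc1* lies beyond the stretch shown.
Chordc1, chr9:18292167-18292296, plus strand: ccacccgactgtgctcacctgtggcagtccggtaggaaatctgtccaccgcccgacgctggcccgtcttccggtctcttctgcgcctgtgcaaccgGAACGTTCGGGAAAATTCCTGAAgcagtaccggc
Stip1, chr19:7039997-7040126, minus strand: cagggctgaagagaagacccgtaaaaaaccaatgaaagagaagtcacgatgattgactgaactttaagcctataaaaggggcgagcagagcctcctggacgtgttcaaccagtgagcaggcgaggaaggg
Fkbp4, chr6:128438727-128438856, minus strand: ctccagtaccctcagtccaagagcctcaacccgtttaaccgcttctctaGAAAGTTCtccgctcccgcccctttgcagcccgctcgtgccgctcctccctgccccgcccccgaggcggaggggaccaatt
Cdc37, chr9:21150005-21150134, minus strand: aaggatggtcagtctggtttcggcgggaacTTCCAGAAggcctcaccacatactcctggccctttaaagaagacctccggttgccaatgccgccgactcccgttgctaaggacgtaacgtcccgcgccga
Of these 4 genes, *Chordc1* and *Stip1* rose in *fat-1* hearts, and *Fkbp4* and *Cdc37* did not pass the test. A match of letters is a description and does not show that a factor was bound. RefSeq start sites and the gene ends of GENCODE M21 differed for some members. The *Stip1* window, bases 7039977 to 7040276, lay wholly upstream of its GENCODE gene, bases 7020702 to 7039967. The *Chordc1* start site lay inside its GENCODE gene, which begins at base 18292125. Which cores are found, and at what positions, depends on the start site used.

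*Fkbp4* (chromosome 6, bases 128429735 to 128438677, minus strand), the immunophilin of steroid receptor complexes, measured 159.7, 105, 86.6, 109.8 and 92.2 FPKM in Fat1-IR hearts 1 to 5, against 93.0, 81.1, 83.0, 83.4 and 94.2 FPKM in Fat1-Con hearts 1 to 5. Wild-type hearts gave 92.0, 90.0, 101, 131 and 91.6 FPKM in WT-IR hearts 1 to 5, against 99.8, 93.4, 90.7, 96.9 and 179 FPKM in WT-Con hearts 1 to 5. The groups overlapped in both genotypes, and the high values were Fat1-IR 1, WT-IR 4 and WT-Con 5, the hearts with the lowest mitochondrial shares. The log2 fold change was 0.31 (SE 0.18, limma adjusted p = 0.502) in *fat-1* hearts and -0.11 (SE 0.18, limma adjusted p = 0.855) in wild-type hearts, the second turning to 0.01 when mitochondrial transcripts were left out of the total.

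*Cdc37* (chromosome 9, bases 21133222 to 21149982, minus strand), the kinase-specific co-chaperone, measured 28.1, 11.4, 10.9, 12.3 and 12.2 FPKM in Fat1-IR hearts 1 to 5, against 12.1, 11.3, 11.5, 12.3 and 12.4 FPKM in Fat1-Con hearts 1 to 5. In the WT groups it measured 11.7, 11.4, 12.7, 12.3 and 11.3 FPKM in WT-IR hearts 1 to 5, against 12.7, 12.6, 12.9, 13.8 and 26.5 FPKM in WT-Con hearts 1 to 5. Apart from Fat1-IR 1 and WT-Con 5, all hearts lay between 10.9 and 13.8 FPKM. The log2 fold change was 0.22 (95% confidence interval, CI, -0.24 to 0.68, limma adjusted p = 0.72) in *fat-1* hearts and -0.34 (95% CI -0.79 to 0.12, limma adjusted p = 0.528) in wild-type hearts. The first of these was -0.05 and the second -0.13 without Fat1-IR 1, Fat1-IR 4 and WT-Con 5, and the second was also -0.13 without WT-Con 5 alone. With mitochondrial transcripts left out of the total, *Cdc37* measured 21.9 FPKM in Fat1-IR 1 and 16.2 FPKM in WT-Con 5, still the highest hearts of their groups.

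*Ptges3* (chromosome 10, bases 128058954 to 128077272, plus strand), which encodes p23, measured 56.0, 34.9, 29.6, 32.3 and 27.9 FPKM in Fat1-IR hearts 1 to 5, against 26.1, 22.6, 24.8, 23.4 and 24 FPKM in Fat1-Con hearts 1 to 5. The groups did not overlap, but the log2 fold change of 0.53 (SE 0.20) had a limma adjusted p of 0.212. WT values were 26.4, 26.2, 32.2, 28.4 and 21.7 FPKM in WT-IR hearts 1 to 5, against 25.2, 25.0, 27.2, 21.5 and 49.4 FPKM in WT-Con hearts 1 to 5. These overlapped, WT-Con 5 being the highest, and the log2 fold change was -0.08 (SE 0.20, limma adjusted p = 0.904), which turned to 0.04 when mitochondrial transcripts were left out of the total. *Ptges3* shares 19.5% of its exon stretches of 50 bases with the pseudogene *Ptges3-ps*, which was listed at a mean of 32.9 FPKM, so its level is uncertain.

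**Figure D3:**
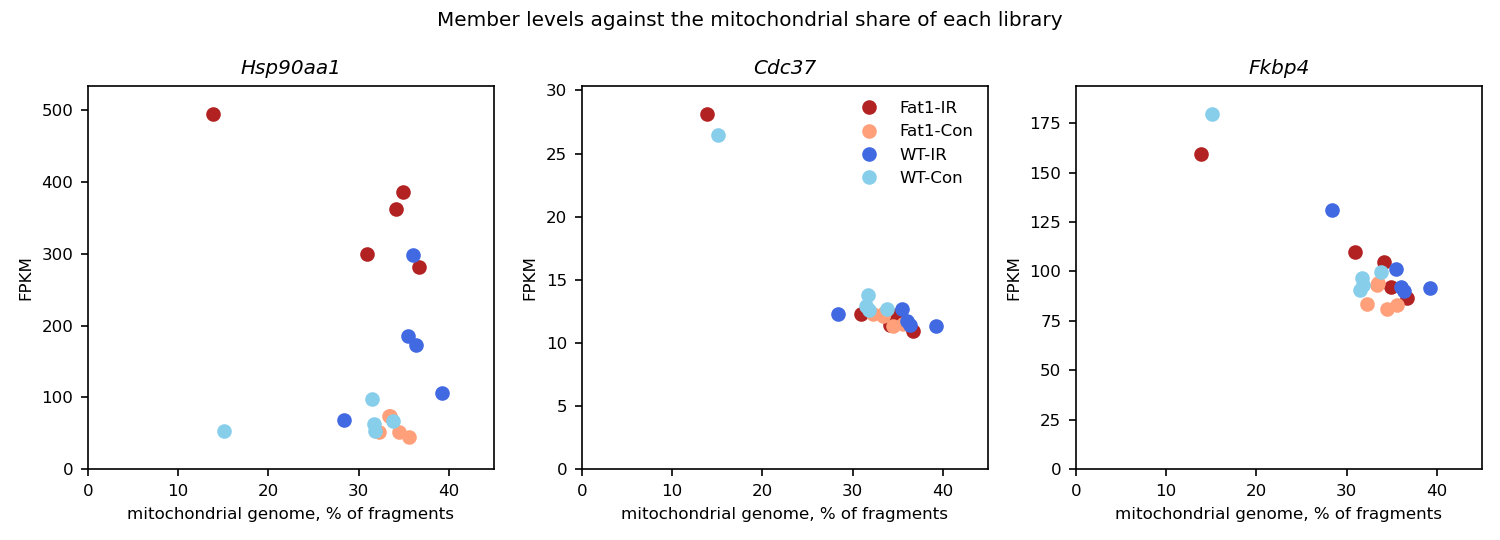
FPKM of *Hsp90aa1*, *Cdc37* and *Fkbp4* (vertical axes, from 0) against the percent of fragments from the mitochondrial genome (horizontal axes, from 0), with 1 point a heart coloured by group. The 2 hearts at 13.9% and 15.1% carry the highest *Cdc37* and *Fkbp4* values, while for *Hsp90aa1* Fat1-IR 1 is the highest heart and WT-Con 5 is among the lowest.

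Over the 20 hearts, Pearson's correlation of log2 level with the mitochondrial share was -0.96 for *Cdc37*, -0.90 for *Fkbp4*, -0.82 for *Ptges3*, -0.76 for *Ahsa1*, -0.54 for *Hsp90ab1*, -0.42 for *Stip1*, -0.36 for *Chordc1*, -0.22 for *Ahsa2*, -0.03 for *Hsp90aa1* and 0.07 for *Hsf1*. These are descriptions over hearts of 4 groups, in which the 2 hearts with low shares weigh heavily. The part of the mitochondrial share in the members' values was not tested. With mitochondrial transcripts left out of the total, 5 members rose in *fat-1* hearts and 1 in wild-type hearts, as many as before, and the log2 fold change of *Hsp90aa1* was 2.49 in *fat-1* hearts and 1.30 in wild-type hearts.

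*Hsf1* (chromosome 15, bases 76477422 to 76501913, plus strand) had the lowest level of the 10. It measured 2.46, 2.56, 2.72, 3.25 and 2.33 FPKM in Fat1-IR hearts 1 to 5, against 2.86, 2.47, 2.65, 2.86 and 3.16 FPKM in Fat1-Con hearts 1 to 5. Among wild-type hearts it measured 2.71, 3.30, 3.30, 3.63 and 2.98 FPKM in WT-IR hearts 1 to 5, against 3.06, 2.77, 2.92, 2.67 and 2.97 FPKM in WT-Con hearts 1 to 5. All 4 groups overlapped. The log2 fold change was -0.07 (95% CI -0.30 to 0.15, limma adjusted p = 0.82) in *fat-1* hearts and 0.14 (95% CI -0.09 to 0.36, limma adjusted p = 0.631) in wild-type hearts, so both intervals leave out a change of 1.5 times. HSF1 is known to be controlled largely as a protein, which these data do not measure.

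Between the genotypes after IR (Fat1-IR against WT-IR), 1 of the 10 genes rose, *Ahsa2*, where 0.0604% of all tested genes rose, and none fell, where 0.0439% did. *Ahsa2* was higher in all 5 Fat1-IR hearts than in any WT-IR heart, by 0.63 on the log2 scale (SE 0.11, limma adjusted p = 0.0269). The call did not hold in 13 of 33 alternatives, among them leaving out Fat1-IR 1, Fat1-IR 2, Fat1-IR 4, WT-IR 1, WT-IR 2, WT-IR 3 or WT-IR 5, when the log2 fold change was 0.58, 0.59, 0.62, 0.61, 0.62, 0.65 and 0.59 in that order, at limma adjusted p-values between 0.0509 and 0.108. *Hsp90ab1* and *Stip1* also did not overlap between these groups, and 3 of 10 members were higher in this way where 0.681% of all tested genes were. *Stip1* differed by 0.59 (SE 0.13, limma adjusted p = 0.0851) and *Hsp90ab1* by 0.50 (SE 0.15, limma adjusted p = 0.372). *Stip1* passed without Fat1-IR 3, at 0.68 and a limma adjusted p of 0.0318, and without WT-Con 5, at 0.59 and a limma adjusted p of 0.0406. It passed in only these 2 of 33 alternatives, which gave differences of 0.37 to 0.68 and limma adjusted p-values of up to 0.356. *Hsp90aa1* differed by 1.28 (SE 0.29, limma adjusted p = 0.116), and without WT-IR 1 by 1.53 at a limma adjusted p of 0.0239. That was its only pass, 1 of 33 alternatives. Leaving out 1 heart at a time gave differences of 1.00 to 1.53. *Chordc1* differed by 0.55 (SE 0.17, limma adjusted p = 0.347) and *Hsf1* by -0.25 (SE 0.11, limma adjusted p = 0.665). Unadjusted p-values under 0.05 were found for 7 of 10 members, among them *Hsf1* with the lower level in Fat1-IR hearts, and for 6.81% of all tested genes. Without Fat1-IR 1, Fat1-IR 4 and WT-Con 5, 0 members passed the limma test, and 7 of 10 members and 12.8% of all tested genes had an unadjusted p under 0.05. Cell type markers differed between these groups as well. The 7 fibroblast markers summed to 128.2 to 177.3 FPKM (median 160.4) in Fat1-IR hearts, against 175.7 to 215.3 FPKM (median 204.4) in WT-IR hearts, and the 8 macrophage markers to 70.3 to 119.2 FPKM (median 76.1) in Fat1-IR hearts, against 101.0 to 119.6 FPKM (median 112.9) in WT-IR hearts. None of these markers was at 0 in all hearts, and their part in the comparison was not tested.

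Without IR, no member passed the test between the genotypes. Between Fat1-Con and WT-Con, 0 of 10 members passed the limma test and 0 had an unadjusted p under 0.05, where 0.022% of all tested genes rose, 0.00549% fell and 5.63% had such a p. The log2 difference of *Hsp90aa1* was -0.18 (95% CI -0.79 to 0.43, limma adjusted p = 0.876), and that of *Ahsa2* was 0.01 (95% CI -0.23 to 0.24, limma adjusted p = 0.995). *Cdc37* was lower in all Fat1-Con hearts than in any WT-Con heart, with a log2 difference of -0.33 (95% CI -0.79 to 0.13, limma adjusted p = 0.757) that was -0.13 without WT-Con 5, and 0.757% of all tested genes were lower in this way.

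The response to IR was compared between the genotypes by the interaction term, which uses the same hearts as the comparisons above. *fat-1* hearts had the larger log2 response for 9 of 10 members, all but *Hsf1*, and the median difference of responses was 0.61, against 0.038 over all tested genes. The difference was 1.46 for *Hsp90aa1* (95% CI 0.59 to 2.32), 0.76 for *Chordc1* (95% CI 0.26 to 1.25), 0.67 for *Ahsa1* (95% CI 0.19 to 1.15), 0.62 for *Ahsa2* (95% CI 0.29 to 0.95), 0.61 for *Stip1* (95% CI 0.24 to 0.98), 0.61 for *Ptges3* (95% CI 0.04 to 1.19) and 0.60 for *Hsp90ab1* (95% CI 0.15 to 1.04). Unadjusted p-values under 0.05 were found for these 7 of 10 and for 5.31% of all tested genes. No member passed after adjustment over all genes, with limma adjusted p-values of 0.805 to 0.831, where 0.00549% of all tested genes passed with a larger response in *fat-1* hearts and 0% with a smaller one. With mitochondrial transcripts left out of the total the median difference of the members was 0.35, against -0.195 over all tested genes. The difference was then 1.19 for *Hsp90aa1*, 0.49 for *Chordc1*, 0.40 for *Ahsa1*, 0.37 for *Ahsa2*, 0.35 for *Stip1* and for *Ptges3*, and 0.33 for *Hsp90ab1*, and unadjusted p-values under 0.05 were found for 4 of 10 members and 6.64% of all tested genes. The median was 0.33 without Fat1-IR 1, Fat1-IR 4 and WT-Con 5, against -0.072 over all tested genes, and such p-values were found for 6 of 10 members and 7.49% of all tested genes. *Hsp90aa1* kept a difference of 1.46 and *Ahsa2* was at 0.55 there, while *Chordc1* was at 0.48, *Stip1* at 0.36, *Hsp90ab1* at 0.33, *Ahsa1* at 0.32, *Ptges3* at 0.23, *Cdc37* at 0.08 and *Fkbp4* at 0.04. In both fits 9 of 10 members were positive. For *Hsp90aa1* the difference moved between 1.18 and 1.71 on leaving out 1 heart at a time. Larger responses in *fat-1* hearts are therefore a direction in these samples and were not established gene by gene.

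**Figure D4:**
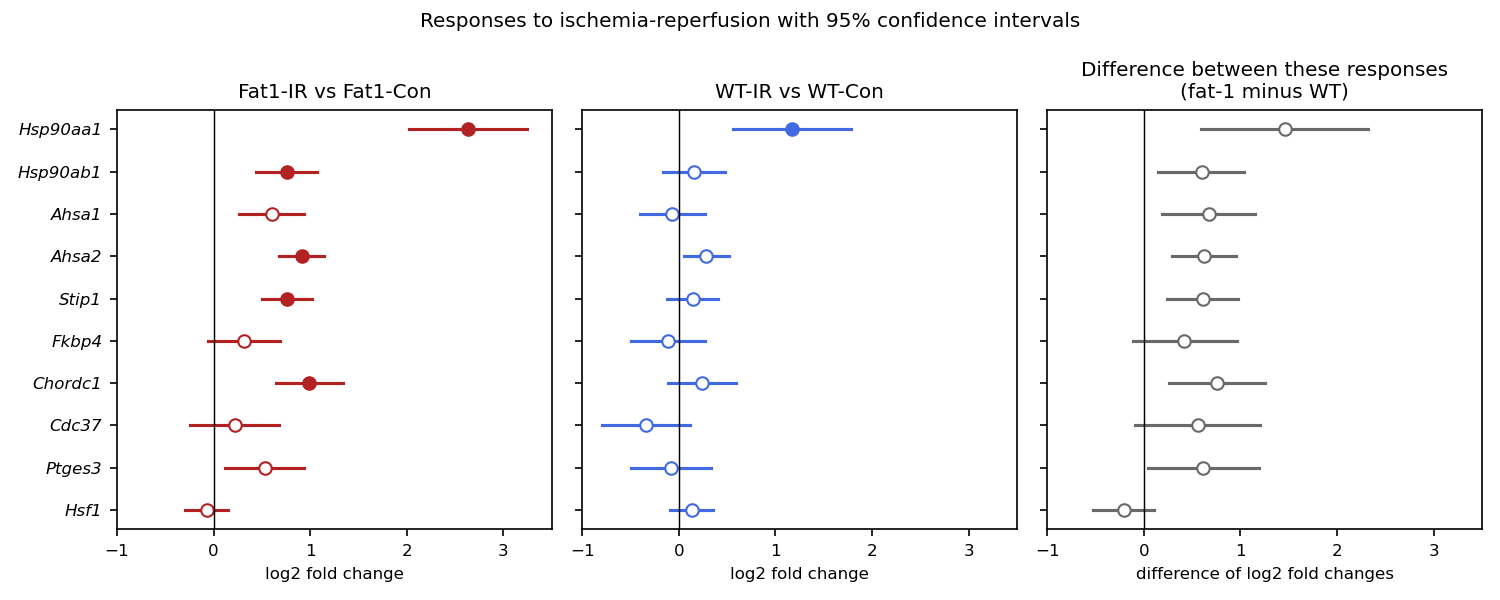
Log2 fold changes of the 10 genes after IR in *fat-1* hearts (left) and wild-type hearts (middle), and the difference between these responses (right), with 95% confidence intervals from limma (n = 5 hearts a group). Filled points passed both thresholds, which 5 members did on the left, *Hsp90aa1* alone in the middle and none on the right.

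The members did not vary as one. Among the 5 genes that rose in *fat-1* hearts, Pearson's correlation of log2 level over the 20 hearts lay between 0.81 and 0.96, and after the group means were taken out between 0.14 and 0.88. These genes share a rise by choice, which enters the first of these ranges. The members other than *Hsf1* that did not rise were *Ahsa1*, *Fkbp4*, *Cdc37* and *Ptges3*. Among them the correlation lay between 0.73 and 0.91, and between 0.82 and 0.95 after the group means were taken out. Fat1-IR 1 and WT-Con 5 were the highest hearts of their groups for each of these genes and weigh heavily in this relation. Whether it holds among the other hearts was not tested. For *Hsf1* with the other members the correlation over the 20 hearts lay between -0.24 and 0.16. For the gene outside the list most like each member, among 11044 genes averaging at least 1 FPKM, the correlation was 0.995 for *Hsp90aa1* with *Dnaja1*, an HSP40 co-chaperone of HSP70. It was 0.96 for *Hsp90ab1* and 0.939 for *Stip1*, both with *Hspd1*, the mitochondrial chaperonin HSP60. It was 0.915 for *Ahsa1* with *Cct7*, a subunit of the cytosolic chaperonin, and 0.955 for *Chordc1* with *P4ha1*, a collagen prolyl hydroxylase. It was 0.907 for *Ahsa2* with *Nle1*, 0.956 for *Fkbp4* with *Rnf187*, 0.983 for *Cdc37* with *Fars2*, 0.945 for *Ptges3* with *Agpat5* and 0.75 for *Hsf1* with *Mfsd10*. All correlations share the libraries and their mitochondrial shares and are descriptions over 20 hearts. *Dnaja1* itself averaged 71.9 ± 16.1 FPKM in Fat1-IR hearts, against 9.70 ± 1.51 FPKM in Fat1-Con hearts, and 31.2 ± 16.3 FPKM in WT-IR hearts, against 10.9 ± 1.97 FPKM in WT-Con hearts (SD, n = 5 each).

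Other genes of the pathway were counted with the same test. Of 30 further HSP90 paralogs and co-chaperones, 29 were tested. In *fat-1* hearts 1 rose and 0 fell, near the 1.3% and 0.703% of all tested genes that did. This was *Cacybp*, an adaptor of ubiquitin ligases with an HSP90-binding domain, at 37.5 ± 6.32 FPKM in Fat1-IR hearts, against 22.1 ± 1.15 FPKM in Fat1-Con hearts (SD, n = 5 each), a log2 fold change of 0.75 (limma adjusted p = 0.00333). In wild-type hearts, where 2.01% of all tested genes rose and 1.19% fell, 0 rose and 1 fell. This was *Fnip2*, a folliculin partner that slows the HSP90 ATPase, at 3.57 ± 0.632 FPKM in WT-IR hearts, against 6.56 ± 2.001 FPKM in WT-Con hearts (SD, n = 5 each), a log2 fold change of -0.81 (limma adjusted p = 0.0241). The medians of these 29 were 0.19 in *fat-1* hearts and -0.09 in wild-type hearts. Of 5 other heat shock factors and regulators, 3 were tested and 0 passed in either genotype, with 0 at an unadjusted limma p under 0.05, where 12.5% of all tested genes in *fat-1* hearts and 14.9% in wild-type hearts had such a p.

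Of 20 target genes of HSF1 outside HSP90, all tested, 11 rose and 0 fell in *fat-1* hearts, where 1.3% of all tested genes rose and 0.703% fell, with a median log2 fold change of 0.90. In wild-type hearts 5 rose and 0 fell, where 2.01% of all tested genes rose and 1.19% fell, with a median of 0.16. *Hsph1*, the HSP110 exchange factor of HSP70, averaged 101 ± 17.01 FPKM in Fat1-IR hearts, against 7.39 ± 1.21 FPKM in Fat1-Con hearts, and 42.0 ± 24.1 FPKM in WT-IR hearts, against 8.53 ± 2.34 FPKM in WT-Con hearts (SD, n = 5 each). Its log2 fold change was 3.75 (limma adjusted p = 1.87e-06) in *fat-1* hearts and 2.11 (limma adjusted p = 0.000524) in wild-type hearts. *Dnaja1* rose by 2.86 (limma adjusted p = 1.39e-05) in *fat-1* hearts and by 1.35 (limma adjusted p = 0.00771) in wild-type hearts. No target passed between Fat1-IR and WT-IR, where 16 of 20 targets and 6.81% of all tested genes had an unadjusted limma p under 0.05.

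Of 30 client proteins of HSP90, 28 were tested. In *fat-1* hearts 1 rose and 0 fell, where 1.3% and 0.703% of all tested genes did, and in wild-type hearts 2 rose and 1 fell, where 2.01% and 1.19% did. These counts are near the shares of all genes and show nothing about clients as a group. *Ahr*, the dioxin receptor held by HSP90 in the cytosol, averaged 1.79 ± 0.204 FPKM in Fat1-IR hearts, against 0.781 ± 0.120 FPKM in Fat1-Con hearts, and 1.71 ± 0.343 FPKM in WT-IR hearts, against 0.621 ± 0.203 FPKM in WT-Con hearts (SD, n = 5 each). Its log2 fold change was 1.11 (limma adjusted p = 0.00127) in *fat-1* hearts and 1.35 (limma adjusted p = 0.000237) in wild-type hearts. In wild-type hearts *Kdr*, the VEGF receptor of endothelial cells, rose by 0.99 (limma adjusted p = 0.0266) and *Map3k11*, a kinase of the JNK pathway, fell by 0.71 (limma adjusted p = 0.00155). In *fat-1* hearts *Map3k11* had a log2 fold change of -0.51 (limma adjusted p = 0.0264), under the fold threshold, with no overlap of the groups, and *Kdr* one of 0.56 (limma adjusted p = 0.342). The interaction of *Map3k11* was 0.21 (limma adjusted p = 0.836) and that of *Kdr* -0.43 (limma adjusted p = 0.836), so neither change was shown to differ between the genotypes. The medians of the 28 were -0.10 in *fat-1* hearts and 0 in wild-type hearts.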

How the data were processed

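The authors isolated ventricular RNA with TRIzol, and NEBNext Ultra libraries were run on a HiSeq instrument. The submitters' processing notes name HISAT2, featureCounts and the mouse build mm10, while versions, annotation release and strand setting were not given in the sources used here. FPKM were used as deposited by the authors, 1 column a heart, normalized to the fragments assigned to genes. FPKM times the exon length in GENCODE M21 was whole within 0.02 fragments (for values under 1000) for 30746 of 31217 genes (98.5%), which gave the depth, and 657 IDs are not in M21.

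limma 3.58.1 in R 4.3.3 was run on log2(FPKM + 0.1) for 18219 genes averaging at least 0.1 FPKM, and 13655 were below that. The means of the 4 groups were fitted with a variance trend (16 residual degrees of freedom), with two-sided tests. Tables and figures were made with Python 3.11.15, pandas 2.3.3 and matplotlib 3.10.9. The steps were tested on simulated data. Since the samples are described only as independent, p-values measure the spread between these hearts.

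All 10 members are named, with at most 4 called genes of each other list and comparison by smallest p, and the gene most like each member. The members and lists were chosen with earlier results of these data known. Gene positions and names are those of GENCODE M21, promoters those of RefSeq.

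Other settings tried were a pseudocount of 0.01 or 1, filters at a mean of 1 FPKM or none, median-of-ratios and TPM scaling, a total without mitochondrial transcripts, each pair of groups fitted alone, the replicate number as a block, array weights, voom on the fragments read back, no fold threshold, each heart left out in turn and, chosen after seeing the data, a fit without Fat1-IR 1, Fat1-IR 4 and WT-Con 5. The total without mitochondrial transcripts was the summed FPKM of all other genes, not their fragments. The authors' protein and function data are not analysed here.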

Additional observations from a re-analysis of the deposited data

Results flagged for a closer look

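Among 40 groups of 5 member values, 9 had 1 heart set far apart from the other hearts of its group (gap to the nearest heart above 0.71 of the group's range), where chance gives about 1 in 20, or 2. Of these hearts, 7 were Fat1-IR 1 or WT-Con 5, the libraries with 13.9% and 15.1% of fragments from the mitochondrial genome. In Fat1-IR 1 these were *Hsp90ab1* at 1026 FPKM, *Cdc37* at 28.1 FPKM and *Ptges3* at 56.0 FPKM. In WT-Con 5 they were *Ahsa1* at 26.8 FPKM, *Fkbp4* at 179.5 FPKM, *Cdc37* at 26.5 FPKM and *Ptges3* at 49.4 FPKM. The others were *Fkbp4* in WT-IR 4 at 131.0 FPKM and *Ahsa2* in Fat1-Con 5 at 4.87 FPKM. In the same WT-Con 5 heart *Hsp90aa1* was 53.1 FPKM, the lowest of its group, and *Chordc1* 5.95 FPKM, inside the range of its group. With mitochondrial transcripts left out of the summed FPKM, WT-Con 5 was at 32.5 FPKM for *Hsp90aa1*, against 57.4 to 102.1 FPKM in the other WT-Con hearts. Scaling to the fragments outside the mitochondrial genome was not tried, and the order of hearts may differ there. *Chordc1* was then at 3.64 FPKM, against 5.71 to 7.81 FPKM. *Hsp90ab1*, *Ahsa2*, *Stip1* and *Hsf1* were also lowest there on that scale, and *Ahsa1*, *Fkbp4*, *Cdc37* and *Ptges3* highest. The part of the mitochondrial share in these values was not tested.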

How the results depend on the processing

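No called member changed sign under any alternative. In *fat-1* hearts *Hsp90aa1*, *Ahsa2* and *Chordc1* were called in 33 of 33 alternatives, and *Hsp90ab1* and *Stip1* in 32. The wild-type call of *Hsp90aa1* held in 24 of 33 (log2 fold change 0.92 to 1.45) and the call of *Ahsa2* between Fat1-IR and WT-IR in 20 of 33 (0.55 to 0.72). Without Fat1-IR 1, Fat1-IR 4 and WT-Con 5, 3 members were called in *fat-1* hearts, where 5 were in the fit reported. In wild-type hearts 0 were called with no filter, TPM scaling or each pair alone. Between Fat1-IR and WT-IR 0 were called with a pseudocount of 1, TPM scaling, a total without mitochondrial transcripts, each pair alone, the replicate block, or without those 3 libraries. Leaving out 1 heart at a time gave 5 to 6 members in *fat-1* hearts, 0 to 1 in wild-type hearts, 0 to 2 between Fat1-IR and WT-IR, and 0 between the controls and for the interaction.

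Over all genes, 364 were called in *fat-1* hearts, 583 in wild-type hearts, 19 between Fat1-IR and WT-IR, 5 between Fat1-Con and WT-Con and 1 for the interaction. Array weights gave 745, 993, 54 and 9 for the first 4. Each pair alone gave 204 in wild-type hearts, 11 between Fat1-IR and WT-IR and 8 between the controls. A pseudocount of 1 gave 350 in wild-type hearts and TPM scaling 12 between Fat1-IR and WT-IR. Without the 3 libraries 924 were called in wild-type hearts, 45 between Fat1-IR and WT-IR and 0 for the interaction, which was also 0 with the replicate block or without mitochondrial transcripts. Leaving out 1 heart gave 240 to 591, 393 to 746, 7 to 42, 5 to 7 and 1 to 2, the highest of the first 3 without WT-Con 5.

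A total without mitochondrial transcripts moved the median of all genes to 0.154 between the controls, 0.143 in wild-type hearts and -0.195 for the interaction, and TPM scaling moved it to 0.107 between Fat1-IR and WT-IR and 0.137 for the interaction. The share of calls that rose in *fat-1* hearts was 64.8%, and 54.0% with median-of-ratios scaling, 50.9% without mitochondrial transcripts and 48.0% without the 3 libraries. In wild-type hearts it was 63.0%, and 51.4% with TPM scaling and 74.4% without mitochondrial transcripts. Same-numbered hearts did not deviate together (correlations -0.077 to 0.058), so the numbers were not taken as pairs. The replicate block left 5 members in *fat-1* hearts and 1 in wild-type hearts. The cause of these changes was not tested.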
